A study of Homo sapiens with 8 samples.

Results

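The genes described here are the 4 members of the ID family (ID1, ID2, ID3 and ID4) together with SMAD6, SMAD7, SMAD9, BAMBI and SKIL, which are feedback targets of bone morphogenetic protein (BMP) and transforming growth factor beta (TGF-beta) signalling. They were picked by name, 9 of 60725 genes in the count table, after knockdown and control had already been compared in these data, so their differences from control are given as a description, without p-values. Where a gene of the set is said to pass or miss the threshold against control (an adjusted p under 0.05 in the fit over all genes), this places it within that fit and is no test of the set. Expression was measured by RNA-seq in HAP1, a near-haploid human cell line derived from a chronic myeloid leukaemia. The cells were of 1 clone, SC9, that carries the transcriptional repressor dCas9-KRAB, so this repressor was present in all groups and the groups differed in the guide RNA delivered. The control group (3 libraries) received construct pLB187 with a guide against ADAM22, and the knockdown groups received a guide against NELFE (3 libraries) or NELFB (2 libraries), which code for subunits of the negative elongation factor NELF that holds RNA polymerase II in the promoter-proximal pause. Cells carrying a guide were selected with puromycin and collected 144 h after transduction. Library totals lay between 22037423 and 24444185 counts.

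The knockdowns were visible in their target transcripts. NELFE stood at 50.5, 49.4 and 48.0 CPM (counts scaled to library size, with trimmed-mean, or TMM, normalization) in control replicates 1 to 3 and at 2.41, 2.36 and 2.98 CPM under its own guide, a log2 fold change of -4.26 (SE 0.11, adjusted p = 2.15e-08). NELFB stood at 74.3, 72.6 and 79.0 CPM in control and at 3.07 and 2.77 CPM under its own guide, a log2 fold change of -4.69 (SE 0.11, adjusted p = 4.02e-09). ADAM22, the target of the control guide, named here after its values were seen, still had reads in control but was lower there than in both knockdowns. It had 13.7, 12.9 and 11.2 CPM in control. Under the NELFE guide it had 40.2, 47.4 and 29.9 CPM, and under the NELFB guide 35.5 and 41.0 CPM. Each comparison with control thus also sets a NELF guide against an ADAM22 guide, and the part of ADAM22 in the differences was not tested.

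BMP and TGF-beta ligands bring type I and type II receptor kinases together, and the type I receptors phosphorylate receptor SMADs, which enter the nucleus with SMAD4 and bind regulatory DNA. ID genes are among the best known direct targets of the BMP branch. They code for helix-loop-helix proteins without a DNA-binding region, which pair with E proteins such as TCF3 and hold them off DNA. SMAD6 and SMAD7 are inhibitory SMADs that act on receptors and receptor SMADs, SMAD9 (also called SMAD8) is a receptor SMAD of the BMP branch, BAMBI is a receptor-like membrane protein without a kinase domain that dampens ligand signals, and SKIL (SnoN) is a nuclear corepressor of SMAD-driven transcription. SMAD6, SMAD7, BAMBI and SKIL are thus induced by a signal that they dampen.

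The sequence before the start site is shown for 4 of the genes, since these carry the largest differences (ID2, ID3 and BAMBI) or the widest relative spread between control libraries (ID1). All 9 genes were found among the RefSeq promoters of GRCh38.p14, with 11 windows in total because SMAD7 has several starts. Each line gives the 250 bases before the start, 5′ to 3′ on the gene's strand. Capitals mark GGCGCC (a GC-rich SMAD-binding sequence), CAGAC or its reverse complement GTCTG (the SMAD-binding element) and TATAAA on either strand.
ID1, chr20:31605039-31605288, plus strand: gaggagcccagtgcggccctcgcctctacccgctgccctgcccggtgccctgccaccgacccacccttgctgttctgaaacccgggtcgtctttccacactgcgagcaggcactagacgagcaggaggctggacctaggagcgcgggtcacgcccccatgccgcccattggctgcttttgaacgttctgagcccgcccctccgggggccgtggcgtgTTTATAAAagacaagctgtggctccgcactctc
ID2, chr2:8681806-8682055, plus strand: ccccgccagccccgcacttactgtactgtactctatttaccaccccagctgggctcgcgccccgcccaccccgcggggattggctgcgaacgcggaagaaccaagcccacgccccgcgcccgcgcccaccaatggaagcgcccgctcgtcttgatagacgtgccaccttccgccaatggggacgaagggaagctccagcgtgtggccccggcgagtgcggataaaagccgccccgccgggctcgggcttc
ID3, chr1:23559502-23559751, minus strand: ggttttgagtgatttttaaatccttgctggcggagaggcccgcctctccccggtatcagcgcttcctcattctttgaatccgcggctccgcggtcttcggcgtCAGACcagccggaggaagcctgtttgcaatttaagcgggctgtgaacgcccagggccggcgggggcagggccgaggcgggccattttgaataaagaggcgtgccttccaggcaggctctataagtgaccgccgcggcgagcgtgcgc
BAMBI, chr10:28677271-28677520, plus strand: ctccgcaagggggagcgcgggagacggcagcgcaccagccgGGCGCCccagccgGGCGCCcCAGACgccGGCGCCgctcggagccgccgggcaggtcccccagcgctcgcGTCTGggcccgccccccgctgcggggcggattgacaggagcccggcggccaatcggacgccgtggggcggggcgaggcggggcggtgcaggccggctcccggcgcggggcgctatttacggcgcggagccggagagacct
BAMBI held 3 matches of GGCGCC and 2 of CAGAC in this window, ID3 held 1 of CAGAC, and in ID1 the TATAAA matches on the 2 strands overlap. ID2 held none of these words. Of the genes not shown, SKIL held 1 match each of GGCGCC and CAGAC, and ID4 held 1 each of CAGAC and TATAAA. The SMAD7 starts held 2, 1 and 0 of CAGAC, the second also 1 of TATAAA. SMAD6 and SMAD9, like ID2, held none. Among 35116 RefSeq windows of the same length, 16.4% held GGCGCC, 38% held CAGAC and 10.7% held TATAAA, counting both strands. The GC content of the window was 66% for ID1, 69.2% for ID2, 62% for ID3 and 81.2% for BAMBI, against a median of 58% over all windows.

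A composite word known from BMP-responsive elements, consists of GGCGNC, 5 further bases of any kind and GTCT, and so joins a GC-rich and a GTCT-type sequence at a fixed distance. It was searched for on both strands over 3000 bases before each start, where 389 of 35116 windows (1.11%) held it. ID1, ID3 and SKIL held 1 match each, shown in capitals within 30 bases on the gene's strand.
ID1, chr20:31604371-31604400, plus strand, 897 to 911 bases before the start: caggcctGGCGTCTAACGGTCTgagccgct
ID3, chr1:23562441-23562470, minus strand, 2948 to 2962 bases before the start: ccaccctGGCGCCAGGCTGTCTggggctga
SKIL, chr3:170357150-170357179, plus strand, 544 to 558 bases before the start: cggccagGGCGCCCCCGCGTCTggcccatc
Matches of letters are a description of the sequence, and binding was not measured in these libraries.

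The genes were present at very different levels in control cells. Per transcript length, in mean TPM (counts divided by exon length and scaled to the same total in each library) of the 3 control libraries, ID3 was highest at 256.6 ± 60.8 (SD, n = 3), followed by ID1 at 88.8 ± 42.7, ID2 at 35.1 ± 6.65, SMAD9 at 22.7 ± 1.08, SKIL at 16.8 ± 0.459, BAMBI at 14.0 ± 2.29, SMAD6 at 11.5 ± 2.92 and SMAD7 at 9.19 ± 1.73 TPM. Neighbours from ID3 down to SKIL had ranges that did not overlap between control libraries. SKIL and BAMBI overlapped, as did BAMBI and SMAD6, and SMAD6 and SMAD7, so their order was not resolved by the spread between libraries. ID4 had no read in any of the 8 libraries, which allows at most 0.0161 CPM over all of them (3 counts, counting error only), and it entered no test.

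In both knockdowns the order changed in the middle of the list. BAMBI stood above SMAD9 and SKIL in mean level, at 32.8 ± 11.5 TPM (n = 3) in NELFE knockdown and 42.6 ± 14.4 TPM (n = 2) in NELFB knockdown, although in NELFE knockdown its lowest library, at 20.9 TPM, lay within the range of SKIL and below every library of SMAD9. ID2 reached 104.5 ± 4.31 and 97.6 ± 0.872 TPM, which left it below the lowest ID1 library in each knockdown. ID3 remained the highest, at 506.2 ± 88.4 and 525.6 ± 36.1 TPM.

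**Figure D1:**
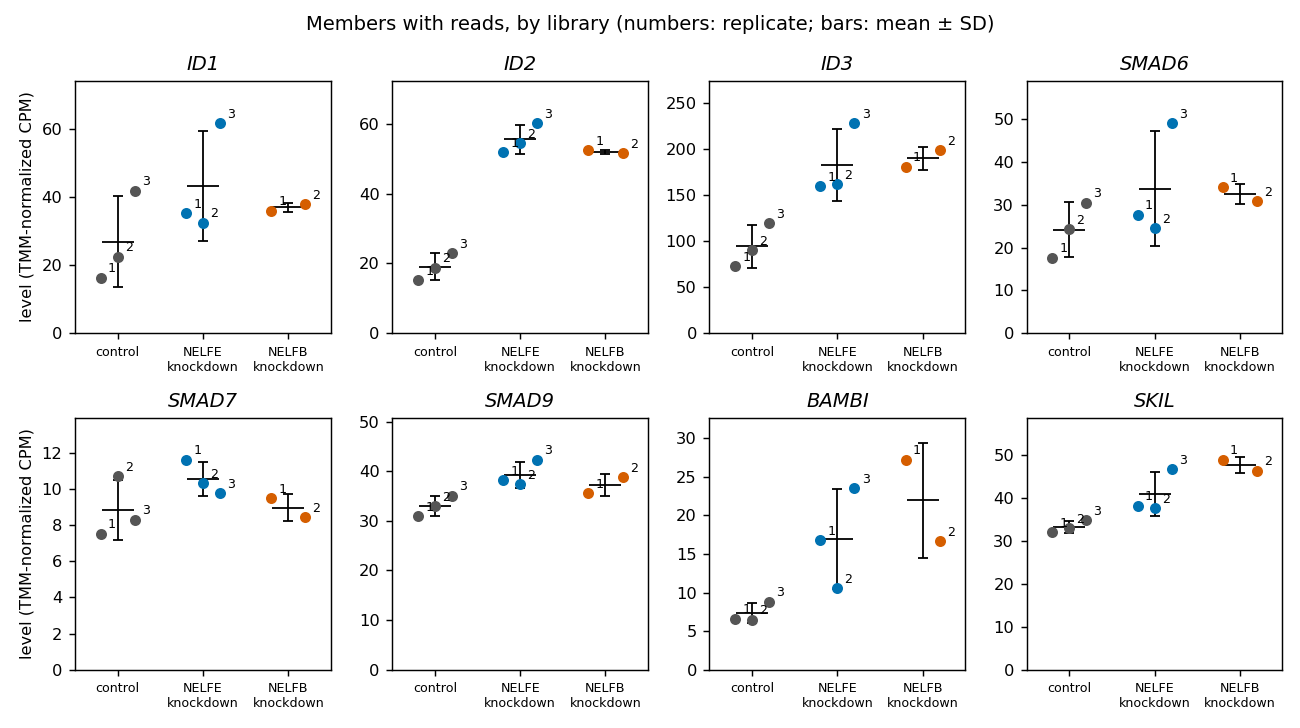
Level of the 8 genes with reads in each of the 8 libraries (vertical axis: TMM-normalized CPM, starting at 0; points: libraries with their replicate numbers; bars: group mean ± SD). ID2, ID3, SMAD9, BAMBI and SKIL showed no overlap between the 5 knockdown and the 3 control libraries, whereas ID1, SMAD6 and SMAD7 overlapped.

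ID2 (ENSG00000115738.9, chr2:8678845-8684461, plus strand) had the widest separation of the ID genes. Its level was 15.2, 18.8 and 23.0 CPM in control, 52.0, 54.5 and 60.3 CPM in NELFE knockdown and 52.5 and 51.7 CPM in NELFB knockdown. The lowest knockdown library was far above the highest control library, and the 5 knockdown libraries lay close together. The log2 fold change of all knockdown libraries against control was 1.52 (SE 0.12), a 2.86-fold difference, with 1.55 (SE 0.13) for NELFE knockdown and 1.46 (SE 0.14) for NELFB knockdown. The antisense gene ID2-AS1 overlaps ID2 and had between 16 and 38 reads per library. It cannot be separated from ID2 by strand in these counts, whose labels give the strandedness as unknown.

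ID3 (ENSG00000117318.8, chr1:23557926-23559501, minus strand), the most abundant gene of the family here, was at 72.6, 89.8 and 120 CPM in control, at 159, 161 and 228 CPM in NELFE knockdown and at 181 and 199 CPM in NELFB knockdown. The groups did not overlap, and within control and within NELFE knockdown the library numbered 3 was the highest. The log2 fold change was 0.98 (SE 0.16) over all knockdown libraries, 0.96 (SE 0.18) for NELFE and 1.01 (SE 0.20) for NELFB. The NELFB value no longer passed the threshold when it rested on either NELFB library alone (1.07 without replicate 1, 0.94 without replicate 2).

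ID1 (ENSG00000125968.8, chr20:31605283-31606515, plus strand) was less clearly separated. It was at 16.3, 22.5 and 41.8 CPM in control, at 35.2, 32.5 and 61.7 CPM in NELFE knockdown and at 36.0 and 37.8 CPM in NELFB knockdown. Control replicate 3 exceeded 4 of the 5 knockdown libraries, and the control libraries alone spread over 26.9 ± 13.3 CPM (SD, n = 3). The log2 fold change was 0.60 (SE 0.32) over all knockdown libraries, 0.68 (SE 0.32) for NELFE and 0.46 (SE 0.35) for NELFB, and passed the threshold in none of these comparisons. These values depended on single libraries. The pooled value was 0.34 without control replicate 1, 0.39 without NELFE replicate 3 and 1.07, past the threshold, without control replicate 3. The NELFE value was 0.42, 0.33 and 1.15 without the same libraries, of which the last passed, and the NELFB value was 0.20 without control replicate 1 and 0.93 without control replicate 3. With the replicate number as a block, the log2 fold changes of ID1 were 0.79 pooled, 0.72 for NELFE and 0.89 for NELFB, and all passed. Without both libraries numbered 3 they were 0.80 for NELFE and 0.92 for NELFB, and both passed.

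Of the inhibitory SMADs, SMAD7 lay closer to control than SMAD6. SMAD6 (ENSG00000137834.14, chr15:66702236-66782849, plus strand) was at 17.6, 24.4 and 30.5 CPM in control, 27.7, 24.6 and 49.1 CPM in NELFE knockdown and 34.2 and 30.8 CPM in NELFB knockdown. As with ID1, the library numbered 3 was the highest in control and in NELFE knockdown, and the groups overlapped. Its log2 fold change was 0.46 (SE 0.23) over all knockdown libraries, 0.48 (SE 0.25) for NELFE and 0.43 (SE 0.28) for NELFB, none past the threshold. The pooled value was 0.28 without control replicate 1 or NELFE replicate 3. The NELFE value was 0.30 without control replicate 1 and 0.12 without NELFE replicate 3, and the NELFB value was 0.24 without control replicate 1. The highest values with 1 library left out were 0.67 pooled, 0.69 for NELFE and 0.63 for NELFB. With the replicate block SMAD6 passed at 0.55 pooled, 0.45 for NELFE and 0.70 for NELFB. Its NELFB value also passed without both libraries numbered 3 (0.62). SMAD7 (ENSG00000101665.8, chr18:48919853-48950965, minus strand), which acts on receptors of both branches, was at 7.52, 10.7 and 8.31 CPM in control, 11.6, 10.3 and 9.76 CPM in NELFE knockdown and 9.49 and 8.45 CPM in NELFB knockdown. Its groups overlapped throughout, with a log2 fold change of 0.17 (SE 0.15) over all knockdown libraries, 0.26 (SE 0.15) for NELFE and 0.02 (SE 0.17) for NELFB. With 1 library left out it ranged from 0.06 (without control replicate 1) to 0.33 (without control replicate 2) pooled, and from 0.15 to 0.42 without the same libraries for NELFE. For NELFB its direction turned, with a range of -0.08 (without control replicate 1 or NELFB replicate 1) to 0.18 (without control replicate 2). It passed in none of these fits.

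SMAD9 (ENSG00000120693.13, chr13:36844831-36920887, minus strand) was at 30.9, 33.0 and 35.0 CPM in control, 38.2, 37.4 and 42.3 CPM in NELFE knockdown and 35.6 and 38.8 CPM in NELFB knockdown. All knockdown libraries lay above all control libraries, but NELFB replicate 1 and control replicate 3 were nearly level. The log2 fold change was small, 0.22 (SE 0.08), and did not pass the threshold in the main edgeR fit. It passed with the replicate block (0.24, and 0.25 for NELFE), in DESeq2 (0.22) and with at least 10 counts required in every library (0.23).

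BAMBI (ENSG00000095739.10, chr10:28677510-28682932, plus strand) had a low and even level in control, 6.64, 6.51 and 8.84 CPM. It was at 16.8, 10.6 and 23.5 CPM in NELFE knockdown and at 27.2 and 16.7 CPM in NELFB knockdown. The groups did not overlap, but the knockdown libraries spread widely, with NELFB replicate 1 the highest and NELFE replicate 2 the lowest. The log2 fold change was 1.37 (SE 0.27) over all knockdown libraries, a 2.59-fold difference, with 1.21 (SE 0.28) for NELFE and 1.58 (SE 0.30) for NELFB. The pooled value was 1.36 and did not pass with no filter on low counts. With NELFB replicate 1 left out, the value for NELFB knockdown was 1.17 and no longer passed the threshold, and the value for NELFE knockdown was lost without control replicate 1 (1.14), control replicate 2 (1.13) or NELFE replicate 1 (1.22).

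SKIL (ENSG00000136603.13, chr3:170357342-170396835, plus strand) was at 32.0, 32.9 and 34.8 CPM in control, 38.1, 37.5 and 46.7 CPM in NELFE knockdown and 48.9 and 46.3 CPM in NELFB knockdown. Control varied little, and every knockdown library was above it. The log2 fold change was 0.39 (SE 0.10) over all knockdown libraries, with 0.30 (SE 0.10) for NELFE and 0.52 (SE 0.11) for NELFB. The NELFE value passed the threshold only with the replicate block (0.29), and was 0.19 without NELFE replicate 3. The pooled value did not pass without control replicate 2 (0.38), nor the NELFB value without NELFB replicate 1 (0.47) or 2 (0.56).

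Counted over the set, 4 of the 8 tested genes (ID2, ID3, BAMBI and SKIL) were higher in the pooled knockdown libraries at an adjusted p under 0.05 and 0 were lower, where 13.3% of 16367 tested genes were called higher and 12.7% lower. Since the set was picked on this contrast, nothing is read from that count. In NELFE knockdown 3 of 8 passed the threshold (ID2, ID3 and BAMBI), beside 7.92% of all 16852 genes tested that were called higher and 7.04% called lower. In NELFB knockdown the 4 genes named above did, beside 10.6% called higher and 8.88% called lower. The knockdown libraries were all above the control libraries for 5 of the 8 genes, a pattern shown by 14.7% of all genes. The median log2 fold change of the 8 genes was 0.53 over all knockdown libraries, 0.58 for NELFE and 0.49 for NELFB, while the median over all genes of the pooled comparison was -0.00. The 2 knockdowns were set against the same control libraries, so their values are not independent of each other. In bulk RNA a higher level in a share of the cells cannot be told apart from a higher level in all of them.

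**Figure D2:**
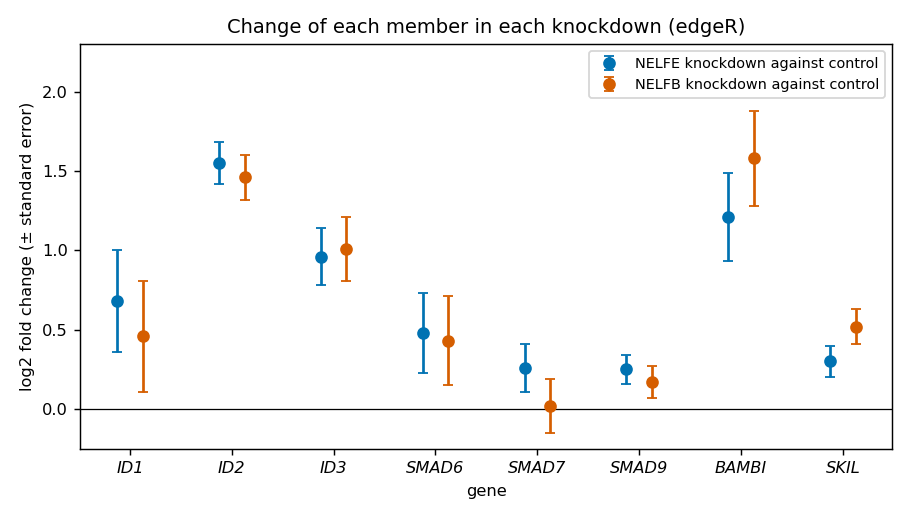
Log2 fold change of each gene against control (vertical axis, ± standard error from edgeR) for NELFE knockdown (blue) and NELFB knockdown (orange), which share the control libraries. ID2, ID3 and BAMBI lie farthest from 0, and SMAD7 lies at 0.26 and 0.02.

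The direct comparison of the 2 knockdowns asks whether the set responds differently to the loss of either NELF subunit, and it was not used to pick the set. None of the 8 genes passed the threshold (0 higher in NELFE knockdown, 0 lower), beside 0.315% of 16852 genes called in either direction, 0.237% higher and 0.0771% lower. DESeq2 called 0 of the 8 as well, and 0 had an unadjusted p under 0.05, which 5.12% of all genes had. The closest was SKIL, lower in NELFE than in NELFB knockdown by 0.22 on the log2 scale (SE 0.11, unadjusted p = 0.0671 and adjusted p = 0.983 in edgeR), with an interval of ± 2 SE from -0.44 to -0.00. BAMBI differed by -0.38 (SE 0.30, interval -0.97 to 0.22, adjusted p = 0.983) and ID1 by 0.22 (SE 0.36, interval -0.49 to 0.93, adjusted p = 0.985). For ID2 the interval of the difference ran from -0.19 to 0.38, for ID3 from -0.45 to 0.35, for SMAD6 from -0.51 to 0.62, for SMAD7 from -0.11 to 0.58 and for SMAD9 from -0.12 to 0.28. The intervals of ID1, SMAD6 and BAMBI are the widest, and none of them shows that the knockdowns act alike.

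The replicate number moved with several of these genes. Control replicate 3 was 2.16-fold above the mean of control replicates 1 and 2 for ID1, 1.46-fold for SMAD6 and 1.47-fold for ID3, and NELFE replicate 3 stood above its own replicates 1 and 2 by 1.83-fold, 1.88-fold and 1.42-fold. Paired by number, NELFE knockdown over control was 2.16, 1.44 and 1.48 for ID1 (replicates 1, 2 and 3), 3.42, 2.9 and 2.63 for ID2, and 2.2, 1.8 and 1.91 for ID3. These 3 genes were higher in every pair. SMAD6 had ratios of 1.58, 1.01 and 1.61, and SMAD7 of 1.55, 0.962 and 1.17, so neither was clearly higher in each pair. BAMBI had 2.53, 1.62 and 2.66, SMAD9 1.24, 1.13 and 1.21, and SKIL 1.19, 1.14 and 1.34.

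With the replicate number as a block, 7 of the 8 genes passed the threshold in NELFE knockdown, all but SMAD7, with log2 fold changes of 0.72 for ID1, 0.45 for SMAD6, 0.25 for SMAD9 and 0.29 for SKIL. The block also raised the calls over all genes in this comparison, to 2408 higher (14.3%) and 2355 lower (14.0%). In the pooled comparison the block called the same number of the set, 7, beside 17.1% of all genes higher. This fit also holds the NELFB libraries, which did not deviate together with the control libraries of the same number. Without both libraries numbered 3, the pooled log2 fold change was 0.86 for ID1 and 0.48 for SMAD6, 6 of 8 genes passed the threshold, beside 12.3% of all genes called higher in that fit, and ID2, ID3 and BAMBI were at 1.63, 1.10 and 1.43. What sets the libraries numbered 3 apart was not tested.

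**Figure D3:**
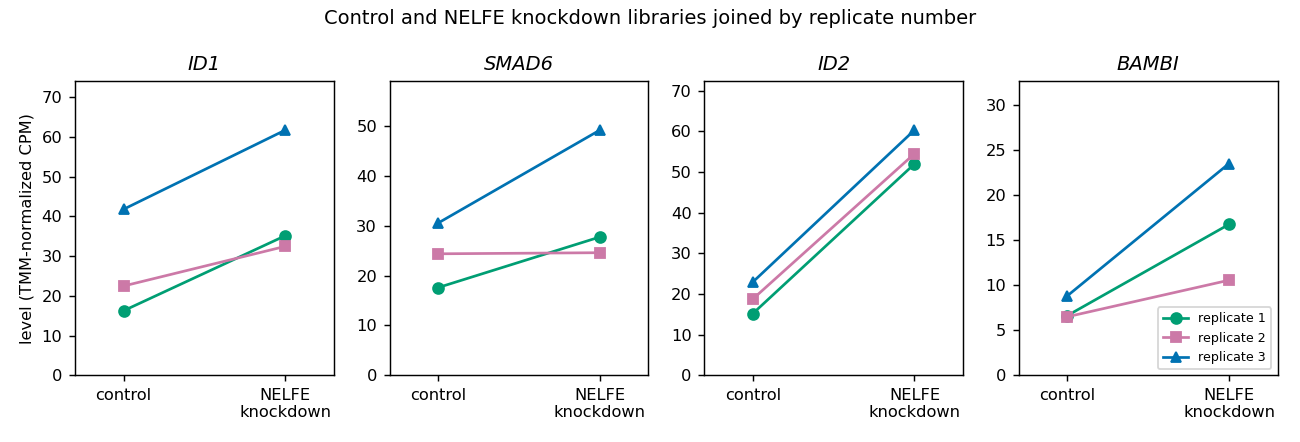
Levels of ID1, SMAD6, ID2 and BAMBI (vertical axis: TMM-normalized CPM) in control and NELFE knockdown, with libraries of the same replicate number joined by a line. Replicate 3 is the highest in both groups for ID1 and SMAD6, and SMAD6 is level between the groups in replicate 2 (ratio 1.01).

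Other genes of the pathway were taken from lists of ligands, receptors, SMADs, antagonists, inhibitors, targets and E proteins, 111 genes of which 77 could be tested over all knockdown libraries. Of these, 19 were higher, 7 were lower and 51 did not pass the threshold, beside 13.3% higher and 12.7% lower among all genes, and their median log2 fold change was 0.09. These counts depended on single libraries, with 11 higher without control replicate 2 or 3, beside 8.09% and 8.92% of all genes. Without control replicate 1, 3 were lower beside 12.6% of all genes, and with the replicate block 12 were lower beside 17.3%. At the level of ligands, 2 of 15 tested genes rose and 3 fell, which is near the shares of all genes. BMP6 rose by a log2 fold change of 1.61 (SE 0.31, adjusted p = 0.00381), from 1.2, 0.797 and 0.656 CPM in control to between 1.99 and 4.27 CPM. GDF11, a ligand of the activin branch, rose by 0.77 (SE 0.12, adjusted p = 0.00114). INHBB, a subunit of activin B, fell by 1.09 on the log2 scale (SE 0.22, adjusted p = 0.00474), and TGFB1 fell by 0.41 (SE 0.12, adjusted p = 0.0299). INHBE, at a low level, was at -1.05 (SE 0.35, adjusted p = 0.043), passed in neither knockdown taken alone, and lost its pooled call in 7 alternatives, among them those without control replicate 1 or 3, NELFE replicate 1 or 2, or NELFB replicate 2 (-1.08 to -0.75). The calls of BMP6, GDF11 and INHBB held in every alternative in which they could be tested, whereas that of TGFB1 was lost without control replicate 1 (-0.22), NELFE replicate 1 (-0.40) or NELFE replicate 2 (-0.39).

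Among 14 receptors and co-receptors, TGFBR2, the type II receptor for TGF-beta, rose by 0.74 (SE 0.12, adjusted p = 0.00156). The call held in every alternative run. TGFBR2 was at 17.2, 18.9 and 16.3 CPM in control, 26.5, 23.4 and 31.1 CPM in NELFE knockdown and 33.4 and 31.3 CPM in NELFB knockdown, without overlap. BMPR2, the type II receptor for BMPs, rose by 0.31 (SE 0.10, adjusted p = 0.0359), but not when any library other than NELFE replicate 3 was left out (0.26 to 0.36), and TDGF1 (Cripto), a co-receptor for Nodal present at a low level, was the only receptor gene called lower. Of the SMADs that carry the signal, 1 of 5 passed the threshold, beside 13.3% of all genes called higher and 12.7% lower. SMAD3 rose by 0.25 (SE 0.08, adjusted p = 0.0482), a call at the edge of the threshold. The call was lost when any library other than NELFE replicate 2 was left out (0.21 to 0.29). It was also lost without both libraries numbered 3 (0.25) and with DESeq2 size factors (0.24). SMAD3 passed in neither knockdown taken alone. SMAD1, SMAD2, SMAD4 and SMAD5 had log2 fold changes of -0.01, -0.01, 0.03 and 0.09, each with an SE of 0.08 or less and none past the threshold.

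Antagonists outside the cell included NOG (noggin), which binds BMPs, and TWSG1, which binds BMPs together with chordin. NOG was at 5.44, 9.34 and 13.2 CPM in control, 20.2, 17.5 and 40.8 CPM in NELFE knockdown and 22.2 and 24 CPM in NELFB knockdown, and rose by 1.42 (SE 0.34, adjusted p = 0.0148). Here too the libraries numbered 3 were the highest of their groups, and the call was lost without control replicate 1 (1.14) or 2 (1.42) and with no filter on low counts (1.41). TWSG1 rose by 0.29 (SE 0.07, adjusted p = 0.0133), but was at 0.22 and not called without control replicate 3. The other 5 of 7 tested antagonists did not pass. Among all genes 13.3% were called higher and 12.7% lower. Of 15 inhibitors inside the cell, the corepressor TGIF1 rose by 0.49 (SE 0.13, adjusted p = 0.0172), while CTDSPL, a small phosphatase, fell by 0.55 (SE 0.11, adjusted p = 0.00504) and NEDD4L, a ubiquitin ligase, fell by 0.29 (SE 0.09, adjusted p = 0.0317). Of these calls CTDSPL held in every alternative run, TGIF1 was lost without control replicate 2 (0.36), and NEDD4L was lost without any 1 control or NELFB library (-0.32 to -0.24).

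In the list of other BMP and TGF-beta targets 10 of 18 tested genes rose and 1 fell, beside 13.3% and 12.7% of all genes, and the median log2 fold change was 0.79, against medians from -0.05 to 0.08 in the other pathway lists. The difference between the lists was not tested, and the lists were chosen with earlier results of these data known. TAGLN, an actin-binding protein of contractile cells, rose by 3.06 (SE 0.78, adjusted p = 0.0302), and CCN2 (CTGF), a secreted matrix protein, by 2.68 (SE 0.50, adjusted p = 0.00801). CDKN1A, which codes for the cell cycle inhibitor p21, rose by 2.60 (SE 0.66, adjusted p = 0.0296), with its highest levels in NELFE replicate 2 at 72 CPM and NELFB replicate 2 at 93.8 CPM, against 7.64, 11.0 and 5.69 CPM in control. CDKN2B, which codes for the cell cycle inhibitor p15, was at 2.84, 3.10 and 3.46 CPM in control, 9.01, 9.88 and 16.4 CPM in NELFE knockdown and 16.0 and 11.9 CPM in NELFB knockdown, and rose by 2.01 (SE 0.22, adjusted p = 0.000208). TAGLN was no longer called with the replicate number as a block (3.10, adjusted p = 0.0772) or without NELFE replicate 3 (3.01). With no filter on low counts, TAGLN (3.05, adjusted p = 0.0631) and CDKN1A (2.59, adjusted p = 0.0614) missed the threshold. The calls of TAGLN (2.90 to 3.34) and CDKN1A (2.40 to 2.87) were lost without any 1 control library, and that of CCN2 without control replicate 3 (2.76). Without control replicate 2 or 3, 6 targets were called higher, beside 8.09% and 8.92% of all genes. Without both libraries numbered 3, TAGLN (3.29), CDKN1A (2.56) and CCN2 (2.75) lost their calls at folds about as large. In that fit 9 targets were called higher, beside 12.3% of all genes. The call of CDKN2B held in every alternative run. The other genes that rose were KLF10, HEY1, MSX2, JUNB, GADD45B and TBX3. The calls of KLF10, HEY1 and MSX2 held in every alternative run, whereas JUNB (0.70), GADD45B (0.42) and TBX3 (0.38) were lost without control replicate 2, and JUNB also without control replicate 3 (0.68). SNAI1 fell by 1.07 on the log2 scale over all knockdown libraries, but its call was lost without control replicate 1 (-0.65), and it did not pass in NELFB knockdown alone. Several of these genes respond to serum, stress or mechanical signals as well, and which input acted was not tested.

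Of the 3 E proteins tested, the partners that ID proteins bind, 1 passed the threshold, beside 13.3% of all genes called higher and 12.7% lower. TCF4 rose by 0.34 (SE 0.09, adjusted p = 0.0164), from 55.9, 61.0 and 57.4 CPM in control to between 63.9 and 83.1 CPM, with an adjusted p of 0.0502 when control replicate 3 was left out. TCF3 differed by -0.18 (SE 0.07, adjusted p = 0.0863, or 0.0411 with the replicate block) and TCF12 by -0.05 (SE 0.06, adjusted p = 0.548), and neither passed the threshold in the unblocked fit.

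**Figure D4:**
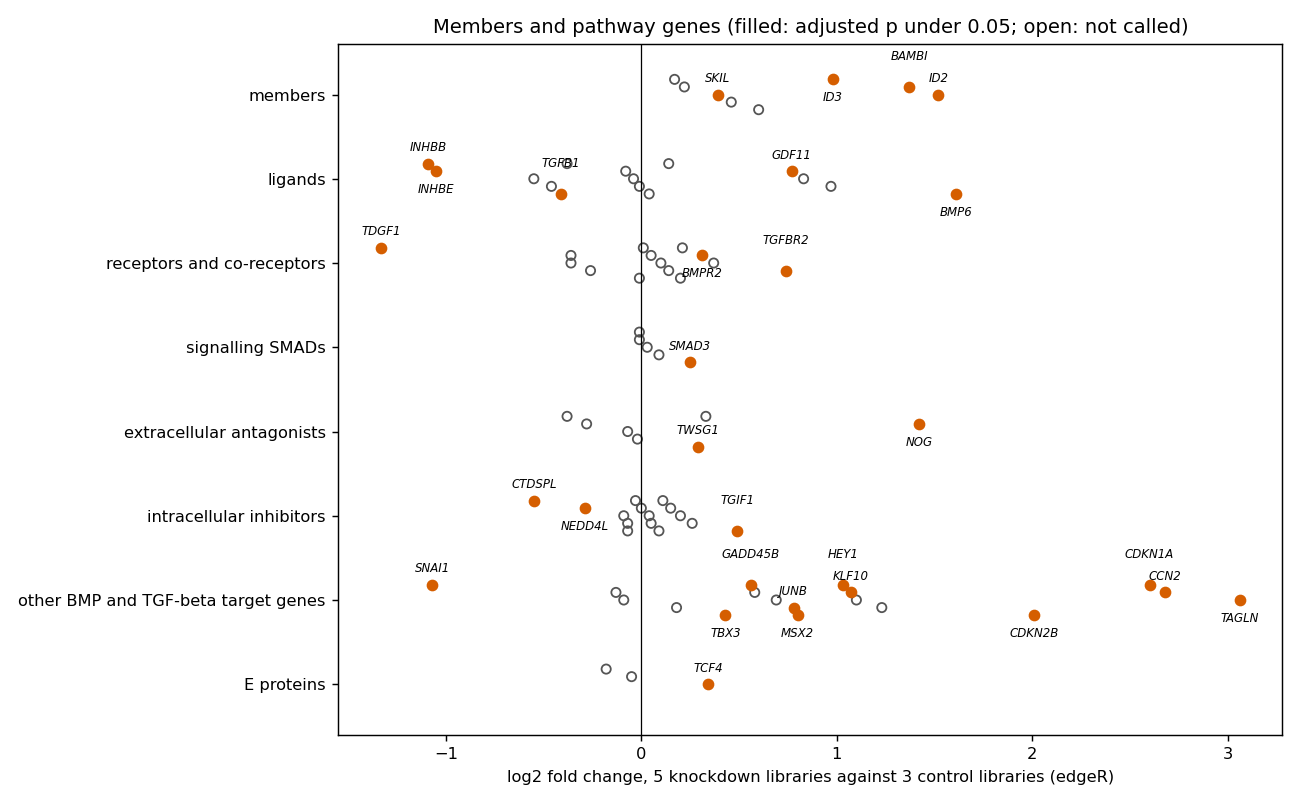
Log2 fold change of the 5 knockdown against the 3 control libraries (horizontal axis) for the 8 tested genes of the set and for each pathway list, with filled points for an adjusted p under 0.05 in edgeR. Signalling SMADs lie within 0.25 of 0, and the list of other targets extends farthest to the right, up to TAGLN at 3.06.

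Taken separately, 14 of 79 tested pathway genes rose and 5 fell in NELFE knockdown, and 19 rose and 5 fell in NELFB knockdown. Among all genes 7.92% were higher and 7.04% lower in NELFE knockdown, and 10.6% and 8.88% in NELFB knockdown. The list of other targets, with 19 tested genes, held 9 of the genes that rose in NELFE knockdown and 11 in NELFB knockdown. Whether the pathway genes differed from all genes was not tested. The counts of pathway genes depended on single libraries, and so did the shares of all genes. Called higher in NELFE knockdown were 3.92% of all genes without control replicate 2, 5.52% without control replicate 3 and 3.35% without NELFE replicate 1. Called lower were 3.28% without control replicate 2, 2.56%, 2.69% and 8.94% without NELFE replicates 1, 2 and 3, and 14.0% with the block. In NELFE knockdown 6 pathway genes were higher without control replicate 2 and 9 without control replicate 3 or NELFE replicate 1. The pathway genes lower there were 1 without NELFE replicate 1 or 2, 3 without control replicate 2 or NELFE replicate 3, and 11 with the replicate block. In NELFB knockdown 3 pathway genes were lower without control replicate 2, beside 4.79% of all genes. Of the genes named above, TGFB1, GADD45B, SNAI1 and TCF4 passed in NELFE knockdown and not in NELFB knockdown, and BMPR2, TWSG1, TGIF1, NEDD4L and JUNB the other way round, but none of them was called between the knockdowns. Between the knockdowns only TGFB3, a TGF-beta ligand named after its values were seen, passed the threshold. It was at 4.84, 4.61 and 4.33 CPM in control, 5.98, 5.46 and 7.30 CPM in NELFE knockdown and 1.99 and 1.66 CPM in NELFB knockdown. It was thus lowest in NELFB knockdown, where it fell by 1.33 on the log2 scale (SE 0.20, adjusted p = 0.00237), and its difference of 0.44 in NELFE knockdown (SE 0.16, adjusted p = 0.0937) did not pass. The difference between the knockdowns was 1.77 (SE 0.20, adjusted p = 0.00233), and it did not pass without NELFB replicate 2 (1.65).

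Serum-responsive genes, among them immediate early genes that growth factors induce within minutes, were read in the same libraries. The summed level of 8 such genes, of which CCN1 was the most abundant, was 152, 247 and 233 CPM in control, 375, 535 and 568 CPM in NELFE knockdown and 1066 and 1137 CPM in NELFB knockdown. The summed level of the ID genes was 104, 131 and 184 CPM in control, 246 to 350 CPM in NELFE knockdown and 269 and 288 CPM in NELFB knockdown. The early-gene sums were higher in both NELFB libraries than in any NELFE library, although 0 of the 8 genes were called between the knockdowns, and the ID sums of the knockdowns overlapped. FOS, FOSB, CCN2 and ANKRD1 were the 4 of 8 called higher over all knockdown libraries, beside 13.3% of all genes. CCN2 is also counted in the list of other BMP and TGF-beta targets. In NELFE knockdown CCN1, CCN2 and FOS were called, 3 of 8 beside 7.92%, and in NELFB knockdown all but EGR1, 7 of 8 beside 10.6%. The early genes did not share 1 pattern: CCN1, CCN2 and ANKRD1 were highest in the libraries numbered 3 of control and NELFE knockdown, as ID1 was, whereas FOS, FOSB and EGR1 were lowest there, with FOS at 4.04, 3.90 and 1.05 CPM in control and 33.8, 70.1 and 7.25 CPM in NELFE knockdown. The part of serum response in the levels of the ID genes was not tested.

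**Figure D5:**
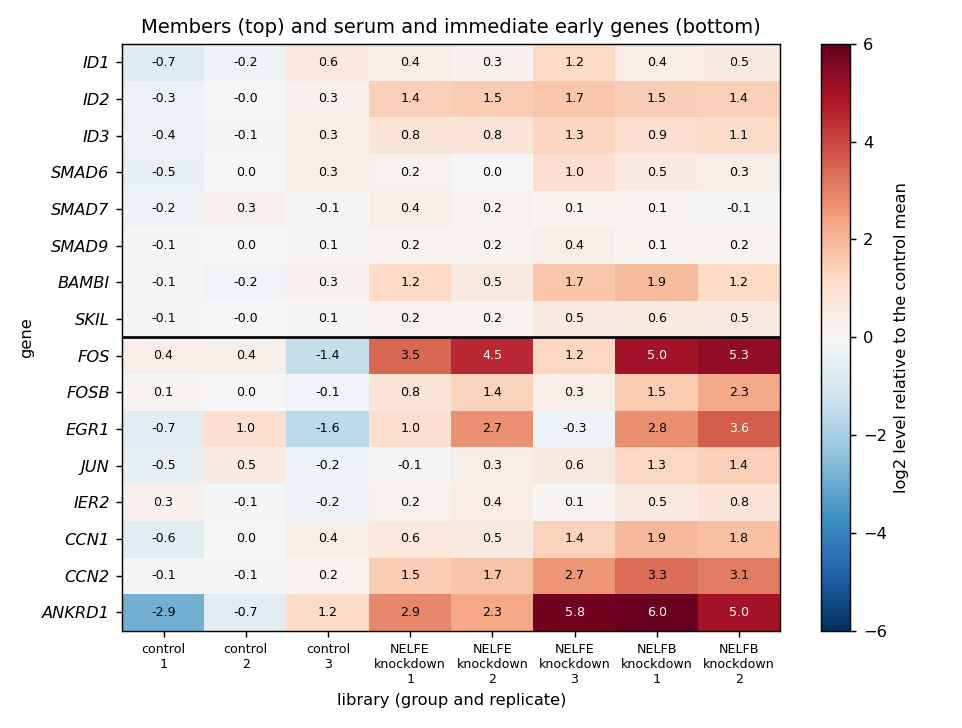
Log2 level of each gene relative to the control mean (colour and printed value, CPM plus 0.1) in each library, for the genes of the set above the black line and for serum and immediate early genes below it. ID2 lies between 1.4 and 1.7 in all 5 knockdown libraries, while FOS ranges from 1.2 to 5.3.

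Markers of other lineages were read in the same libraries as a check on the cells. Of the blood markers, PTPRC and SPI1 had at most 2 reads in any library and HBG1 had 0, and the summed level of 7 blood markers was 0.320, 0.399 and 0.262 CPM in control, 0.789, 0.902 and 1.58 CPM in NELFE knockdown and 3.03 and 1.11 CPM in NELFB knockdown. CD34, with 3, 3 and 1 reads in control and 6 to 67 in the knockdown libraries, was the 1 blood marker that could be tested and was called higher. Among epithelial markers KRT8 and KRT18 were called higher over all knockdown libraries, beside 13.3% of all genes. KRT18 was the most abundant and was not called in NELFE knockdown alone, while CDH1 had at most 4 reads and KRT19 had 0. The epithelial markers summed to 32.8, 31.2 and 33.7 CPM in control, 49.7, 36.5 and 57.9 CPM in NELFE knockdown and 74.3 and 49.9 CPM in NELFB knockdown. Mesenchymal markers, led by VIM, summed to between 410 and 565 CPM in all libraries. The sums were highest in the libraries numbered 3 of control (529 CPM) and NELFE knockdown (565 CPM). Over all knockdown libraries FN1 was called lower, 1 of 3 tested, beside 12.7% of all genes. It was called lower in NELFE but not in NELFB knockdown. The part of these changes in the levels of the ID and feedback genes was not tested.

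The genes most like ID1, by Pearson's r of log2 CPM over the 8 libraries and among 12724 genes, were DLX6 (0.986), STYX (0.985), ZNF597 (0.983), ASB6 (0.982) and FKBP3 (0.98). Within the set, SMAD6 was nearest to ID1 (0.94, rank 44), followed by SMAD9 (0.897) and ID3 (0.873), with ID2 at 0.744 and SMAD7 at 0.244. The pattern of SMAD7 was most like that of ZNF132 (0.932), MINPP1 (0.925), DLG2 (0.925), SKIC3 (0.907) and TYW1 (0.905). For ID2, looked at after its values were seen, the nearest genes were C4orf3 (0.998), EYA4 (0.995), LIG4 (0.992), SAMD15 (0.991) and RBM5 (0.99), and ID3 was at 0.959. These coefficients describe 8 libraries that share groups and replicate numbers, so that any gene differing between the groups or numbers in the same way ranks high.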

How the data were processed

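RNA-seq was done on HAP1 dCas9-KRAB clone SC9 with a control (n = 3), NELFE (n = 3) or NELFB (n = 2) guide. Per the methods, the authors prepared TruSeq libraries, sequenced 65-base single-end reads, and used FastQC 0.11.6 and STAR 2.5.4a on GRCh38 with Gencode v24. The column labels give the strandedness as unknown. The deposited values are raw counts per gene, without normalization. Replicates are described as independent biological replicates. Symbols came from GENCODE 44 by Ensembl identifier, matching 97.4% of the 33854 genes with reads.

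The test was edgeR's quasi-likelihood test (edgeR 4.0.16 under R 4.3.3), after its default expression filter and TMM scaling, with robust dispersion and Benjamini-Hochberg adjustment; genes under 0.05 were called. Pooled knockdown libraries were compared with control, and a model of 3 groups gave the single comparisons. DESeq2 1.42.0 was an alternative. Others were its size factors, no filter, at least 10 counts in every library, each library left out, only the libraries compared, and the replicate number as a block. The main test was run on simulated counts that held no effect of the replicate number. It recovered 93% (pooled), 86% (NELFE) and 80% (NELFB) of changes of 1 on the log2 scale. The simulation does not cover libraries that deviate together by number. Levels are TMM-normalized CPM, or TPM between genes.

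Same-numbered control and NELFE libraries deviated together over 12724 genes (r = 0.457, 0.104 and 0.680 for numbers 1 to 3), and the numbers were taken to pair these samples because every r was over 0.1, although control replicate 1 and NELFE replicate 2, of different numbers, had r = 0.377. Control and NELFB libraries did not (r = -0.066 and -0.026), and for NELFE and NELFB libraries r was 0.144 and 0.344.

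The set and the gene lists were chosen with earlier results of these data known. Named besides the set were NELFE, NELFB, SMAD1 to SMAD5, the 3 E proteins, from each pathway list up to 4 called genes per direction with the largest change, provided that their mean log2 CPM reached 1, and the 5 genes most like ID1 and SMAD7. A further gene of the target list is not reported here and was left out of its counts. Other names were chosen after their values were seen. Intervals are ± 2 SE, and read counts without molecular identifiers cover counting error only. Promoters are from RefSeq (GRCh38.p14).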

Additional observations from a re-analysis of the deposited data

Results flagged for a closer look

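TGFB3 differed between the knockdowns. Its log2 level was 1.77 higher in NELFE than in NELFB knockdown (SE 0.20, adjusted p = 0.00233 by edgeR's quasi-likelihood test of the difference), with 5.98, 5.46 and 7.30 CPM in NELFE and 1.99 and 1.66 CPM in NELFB knockdown. It was picked out for this test result among the genes of the set and of the pathway lists.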

How the results depend on the processing

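Calls of the set against control rest on the contrast that chose it. With the replicate number as a block, 7 genes of the set were called higher in the pooled comparison, 7 in NELFE and 6 in NELFB knockdown, where ID1 was at 0.89, SMAD6 at 0.70 and 14.8% of all genes were called higher. Control and NELFB libraries share only a number, since they did not deviate together (r = -0.066 and -0.026), so the blocked comparison of NELFB with control is not one of paired samples. All genes called in NELFE knockdown went from 1334 to 2408 higher and from 1186 to 2355 lower, and genes lower in NELFB knockdown from 1497 to 2312. Pathway genes called lower went to 12 pooled, 11 in NELFE and 9 in NELFB knockdown with the block. They were 8 in NELFE knockdown with no filter on low counts and 2 with only the libraries of its 2 groups, and 8 in NELFB knockdown without both libraries numbered 3, a choice made after seeing the data.

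Between the knockdowns, genes higher in NELFE went from 40 to 66 with no filter and 69 with the block. Genes lower went from 13 to 35 in DESeq2, 95 with no filter, 8 with at least 10 counts in every library, 126 with the block, 8 with only the 2 groups and 82 without both libraries numbered 3. Pathway genes lower went from 0 to 1 in DESeq2, 3 with no filter, and 2 with the block and without both libraries numbered 3. The directions that turned belonged to values that had not passed the threshold. SMAD7 in NELFB knockdown was -0.02 with the block, -0.03 without both libraries numbered 3, and -0.08, -0.02 and -0.08 without control replicate 1, control replicate 3 or NELFB replicate 1. The difference between the knockdowns turned for ID1 (-0.16 with the block, -0.12 without both libraries numbered 3, -0.13 without NELFE replicate 3), ID2 (-0.01 with the block), ID3 (0.04, 0.03 and 0.02 without NELFE replicate 1, NELFE replicate 2 or NELFB replicate 2), SMAD6 (-0.25 with the block, -0.31 without both libraries numbered 3, -0.31 without NELFE replicate 3, -0.02 without NELFB replicate 2) and BAMBI (0.04 without NELFB replicate 1). Pooled, SMAD1 was 0.01 without control replicate 3 or NELFB replicate 1, and SMAD2 was 0.00 with the block and without NELFE replicate 1 and 0.01 without control replicate 3. Over all fits with 1 library left out, these values ranged from -0.08 to 0.18 for SMAD7 in NELFB knockdown, between the knockdowns from -0.13 to 0.39 for ID1, -0.24 to 0.04 for ID3, -0.31 to 0.24 for SMAD6 and -0.68 to 0.04 for BAMBI, and pooled from -0.04 to 0.01 for SMAD1 and -0.04 to 0.01 for SMAD2. The cause of these changes was not tested.

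With 1 library left out at a time, genes called in the pooled comparison ranged from 1360 to 2526 higher and 1328 to 2599 lower, with 3 to 5 of the set and 11 to 20 pathway genes higher and 3 to 7 lower. For NELFE knockdown the ranges were 561 to 1620 and 429 to 1503, 2 to 4 of the set, and 6 to 16 and 1 to 4 pathway genes. For NELFB knockdown they were 380 to 2218 and 223 to 2098, 1 to 4 of the set, and 8 to 22 and 1 to 5 pathway genes. Between the knockdowns they were 24 to 47 and 2 to 34, 0 of the set, and 0 to 1 and 0 to 2 pathway genes, and TGFB3 was lost without NELFB replicate 2 (1.65). Over all genes, the pooled counts were lowest without control replicate 2, the NELFE counts without NELFE replicate 1 and the NELFB counts without NELFB replicate 1. A fit with 1 NELFB library assumes that it varies like the other groups. NELFB rests on 2 libraries, and SMAD7 and BAMBI have the fewest reads of the set after ID4.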
